A study of Rattus norvegicus with 7 samples.

Results

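The genes described here make cholesterol or restrain its synthesis: Hmgcs1, Mvk, Idi1, Fdps, Fdft1, Sqle and Cyp51 encode enzymes of the pathway, and Insig1 encodes its sterol-responsive brake. They were taken as all probe sets that the platform annotation gives to these 8 symbols. That gave 19 of the 8799 probe sets on the array, for 7 of the 8 genes, among 4737 gene symbols. No probe set was matched to Hmgcs1 through that annotation, and it is not analysed here. No member is a receptor for lipoproteins, so the set is one of synthesis and its feedback, not of uptake. The genes were chosen by their signals on these arrays, above all those of astrocytes at 100 against 0 µg/ml. That contrast is therefore described without a test.

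Cells make cholesterol or take it up in lipoproteins, and nearly all cholesterol of the brain is made there because circulating lipoproteins do not cross the blood-brain barrier. Acetyl-CoA is turned into mevalonate, then into isoprenoid units, then into squalene, which is closed into a ring and trimmed to cholesterol. When sterols in the endoplasmic reticulum fall, the SREBP-2 transcription factor is released and its targets rise together. Insig1 binds the escort protein of SREBP when sterols are plentiful and is itself an SREBP target.

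Hippocampal cells of Wistar rats were grown as neuron cultures or as astrocyte cultures and kept for 24 h with grape seed extract, a polyphenol-rich plant extract. The extract was left out (0 µg/ml) or given at 1 or 10 µg/ml to neurons, and astrocytes had these doses and also 100 µg/ml. Each of the 7 combinations was read on 1 Affymetrix array. The labels give the rats an age of 17 days, without saying whether this counts from birth, and no genetic change or other agent. They do not say how many animals or cultures stand behind an array, so the spread between arrays may be technical in part, and the number of arrays limits the precision.

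Signals are linear intensities scaled by the authors to a common level. The median signal fell between 84.6 and 87.7 in neurons, and was 84.1, 79.9, 73.4 and 65.4 by rising dose in astrocytes. The median probe set of astrocytes at 100 µg/ml lay at a log2 difference of -0.26 from untreated astrocytes, and members are also given relative to that. The cultures were checked with marker lists, each gene read by its brightest probe set and their signals summed. Neuron markers summed to 13090 to 13870 in neurons and, by rising dose, 1640, 1665, 1070 and 776 in astrocytes, and 6 of 6 tested were higher in neurons (adjusted p below 0.05, limma). Astrocyte markers summed to 34450 to 35690 in neurons and 34920 to 40080 in astrocytes, with 2 of 8 higher and 3 lower in neurons. Of all probe sets tested, 24.9% were higher in neurons and 19.7% lower. Slc1a2, a glutamate transporter of astrocytes, had 14.8 to 43.1 at its brightest probe set on all 7 arrays, near the floor of 17.9.

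In astrocytes, Insig1 differed most among the 7 genes at the highest dose. The brightest of its 2 probe sets had signals of 695, 584, 799 and 3518 in astrocytes at 0, 1, 10 and 100 µg/ml. The 3 lower doses lay close together and the array at 100 µg/ml stood alone, 5.06-fold above the untreated one (log2 2.34, or 2.60 relative to all probe sets). The other probe set had 361, 257, 321 and 2539, a ratio of 7.03. In neurons the brightest probe set had 969, 891 and 869 at 0, 1 and 10 µg/ml. The astrocyte array at 100 µg/ml thus also lay above every neuron array, 4.05-fold over neurons at 10 µg/ml.

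**Figure D1:**
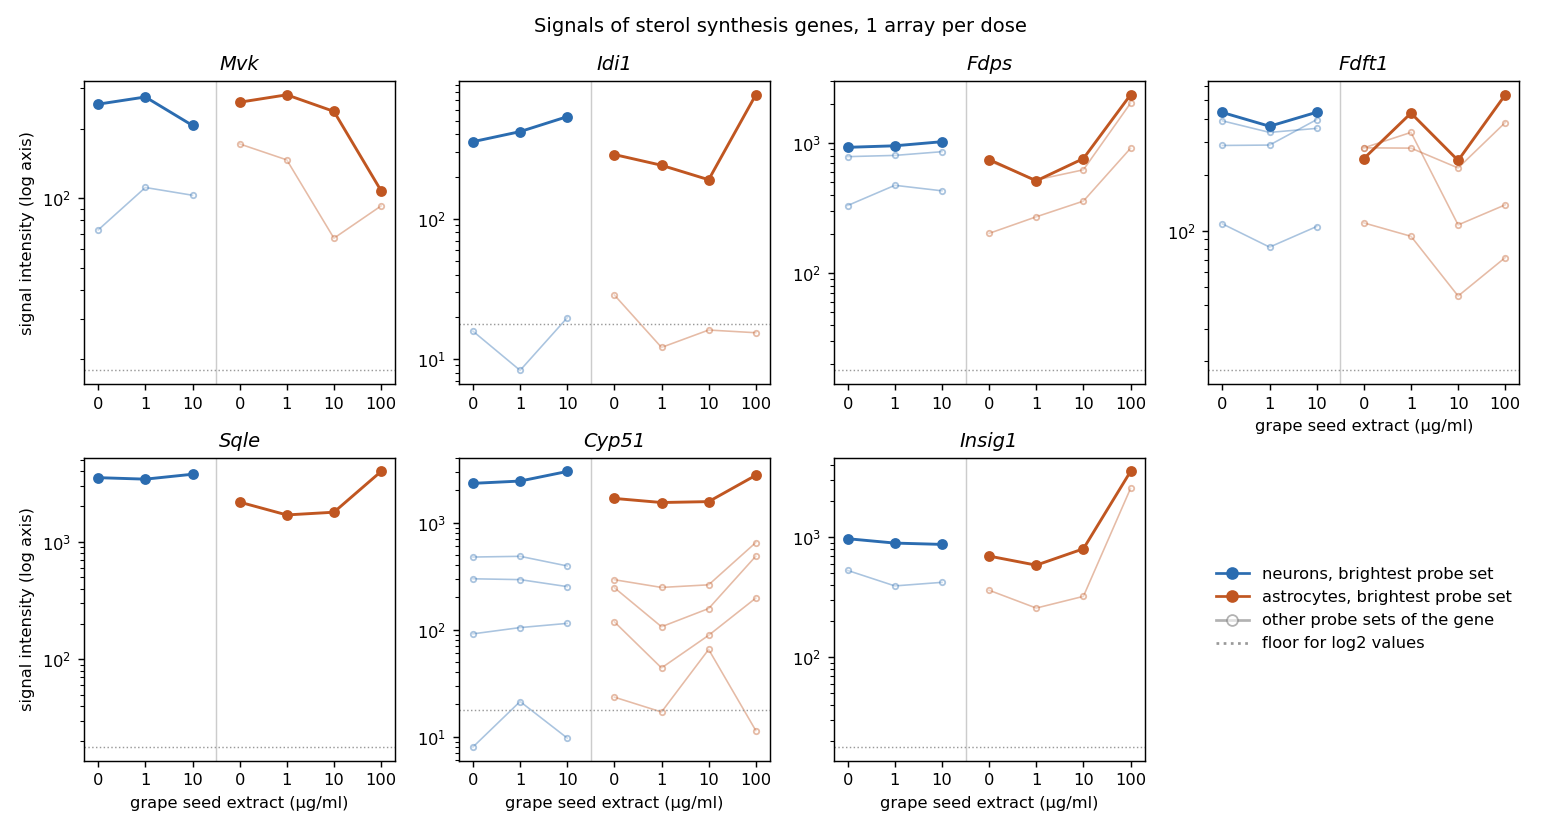
Signal intensity (log axis) of each member gene on the 7 arrays by dose of grape seed extract in µg/ml, neurons left of astrocytes in each panel; filled points are the brightest probe set, open points the others, and the dotted line is the floor of 17.9. Insig1, Fdps and Idi1 are highest in astrocytes at 100 µg/ml, and Mvk is lowest there.

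Promoters of the 5 measured members present in the RefSeq promoter table are shown because 4 of them had their highest astrocyte signal at 100 µg/ml while Mvk had its lowest. Each run is the 250 bases before the annotated start on the GRCr8 assembly, 5′ to 3′ along the gene. Capitals mark CCAAT (the box bound by NF-Y, a partner of SREBP) and GGGCGG (the GC box bound by Sp1), on either strand:
Insig1 (chr4:8057770-8058019, minus strand): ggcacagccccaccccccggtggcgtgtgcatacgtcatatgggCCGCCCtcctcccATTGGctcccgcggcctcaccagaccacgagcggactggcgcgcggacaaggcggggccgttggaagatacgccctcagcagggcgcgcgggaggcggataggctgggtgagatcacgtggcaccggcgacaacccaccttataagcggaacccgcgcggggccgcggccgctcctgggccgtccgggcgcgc
Fdps (chr2:176804817-176805066, minus strand): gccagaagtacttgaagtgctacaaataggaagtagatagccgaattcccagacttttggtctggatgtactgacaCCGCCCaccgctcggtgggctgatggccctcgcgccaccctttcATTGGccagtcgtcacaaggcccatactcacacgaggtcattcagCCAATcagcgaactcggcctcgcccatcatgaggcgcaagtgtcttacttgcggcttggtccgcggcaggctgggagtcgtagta
Idi1 (chr17:66547525-66547774, minus strand): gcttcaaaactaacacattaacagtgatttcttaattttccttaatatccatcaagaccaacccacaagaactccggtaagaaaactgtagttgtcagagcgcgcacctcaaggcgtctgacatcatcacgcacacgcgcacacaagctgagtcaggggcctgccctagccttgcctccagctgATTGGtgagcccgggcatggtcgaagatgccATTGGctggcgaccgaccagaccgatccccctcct
Cyp51 (chr4:30991443-30991692, plus strand): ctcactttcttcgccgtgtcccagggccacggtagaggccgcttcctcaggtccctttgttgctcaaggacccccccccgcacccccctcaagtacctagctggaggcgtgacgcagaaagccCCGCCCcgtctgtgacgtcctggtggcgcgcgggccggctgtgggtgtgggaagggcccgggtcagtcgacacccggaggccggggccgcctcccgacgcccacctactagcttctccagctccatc
Mvk (chr12:47819504-47819753, minus strand): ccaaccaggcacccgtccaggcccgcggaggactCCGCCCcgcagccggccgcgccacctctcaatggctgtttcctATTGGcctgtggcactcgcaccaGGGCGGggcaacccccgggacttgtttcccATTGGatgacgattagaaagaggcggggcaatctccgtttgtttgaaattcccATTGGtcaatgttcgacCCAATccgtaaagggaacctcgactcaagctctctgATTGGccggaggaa

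The CCAAT letters occurred 1 time before Insig1, 2 times each before Fdps and Idi1, 0 times before Cyp51 and 5 times before Mvk. Over 33469 RefSeq promoters of that length, 34.0% held at least 1. The GC box letters occurred 1 time each before Insig1, Fdps and Cyp51, 0 times before Idi1 and 2 times before Mvk, against 30.5% of all promoters. The letters TCACNCCAC of the sterol regulatory element, searched on both strands, were in none of the 5 windows and in 0.974% of all. No match overlapped another.

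Of the enzymes that make and join isoprenoid units, Idi1, Fdps and Fdft1 were higher at 100 µg/ml and Mvk was lower. Idi1 interconverts the isoprenoid building blocks. Its brightest probe set had 287, 241, 190 and 766 in astrocytes at 0, 1, 10 and 100 µg/ml. The values at the lower doses were below the untreated one and that at 100 µg/ml was 2.67-fold above it. Its other probe set lay between 8.3 and 28.6 on all 7 arrays, around the floor, and gives no information.

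Fdps joins those blocks to farnesyl pyrophosphate, the branch point toward sterols and protein prenylation. Its brightest probe set had 750, 515, 764 and 2363, so that 100 µg/ml stood 3.15-fold above untreated astrocytes. Its other 2 probe sets had 728, 523, 626 and 2038, and 203, 272, 359 and 916. All 3 probe sets were highest at 100 µg/ml (2.80-fold to 4.52-fold), and only the dimmest was above the untreated array at both 1 and 10 µg/ml.

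Fdft1 is squalene synthase, the first enzyme committed to sterols, and its 4 probe sets disagreed. The brightest had 244, 428, 239 and 536 in astrocytes at 0, 1, 10 and 100 µg/ml, and the second 279, 278, 217 and 381. In these 2, the array at 100 µg/ml was the highest, 2.20-fold and 1.37-fold over the untreated one, but the brightest was also high at 1 µg/ml. The other 2 had 279, 337, 108 and 138, and 110, 93.6, 44.8 and 72.0, lower at both 10 and 100 µg/ml. Averaged over the 4 probe sets, the log2 change at 100 µg/ml was -0.01, against 1.14 for the brightest.

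Mvk phosphorylates mevalonate. The brightest of its 2 probe sets had 261, 281, 238 and 108 in astrocytes at 0, 1, 10 and 100 µg/ml, and the other 172, 146.5, 67.0 and 92.5. The first was lowest at 100 µg/ml, 2.42-fold below untreated astrocytes (log2 -1.27, or -1.01 relative to all probe sets), and the second was lowest at 10 µg/ml. Mvk was the 1 measured member whose probe sets were both lower at the highest dose.

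Sqle and Cyp51 act after squalene. Sqle, squalene monooxygenase, is an early control point of the sterol branch and had 1 probe set, with 2178, 1694, 1787 and 3974 in astrocytes at 0, 1, 10 and 100 µg/ml. Both low doses were below the untreated array and 100 µg/ml was 1.82-fold above it. Cyp51 removes a methyl group from lanosterol. The brightest of its 5 probe sets had 1686, 1544, 1574 and 2775, and 3 others had 293, 248, 263 and 652, then 247, 106.5, 158 and 486.5, then 118, 43.9, 88.6 and 197. These 4 were highest at 100 µg/ml, by 1.65-fold to 2.23-fold over untreated astrocytes, and lowest at 1 µg/ml. The fifth, at 11.4 to 65.3 in astrocytes, had its lowest signal at 100 µg/ml and was close to the floor on most arrays.

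Counted over genes by their brightest probe set, 4 of 7 members were at least 2-fold higher in astrocytes at 100 µg/ml than in untreated ones and 1 was at least 2-fold lower. Over all 4252 probe sets in that comparison, 6.63% were at least 2-fold higher and 19.0% at least 2-fold lower. The array at 100 µg/ml lay above all 3 lower doses for 6 of 7 genes, against 23.7% of all probe sets, and below them for 1, against 50.4%. Over the 16 member probe sets that passed the signal filter, 13 lay above, 1 below and the others within. The filter averaged all astrocyte arrays, that at 100 µg/ml included. The dimmest of the 13, a probe set of Cyp51, passed only with that array. The median log2 change of the 7 genes was 1.14 at 100 µg/ml, beside -0.26 for all probe sets. Because the members were proposed with this contrast known, nothing is read from these shares. In the same contrast, 2804 of all 4252 probe sets were lower at 100 µg/ml. Of the marker lists, 3 of 3 neuron markers in it were lower (median log2 -1.21), 6 of 8 astrocyte markers (median -0.54) and 3 of 3 microglia markers (median -0.79). Their part in the members' values was not tested.

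**Figure D2:**
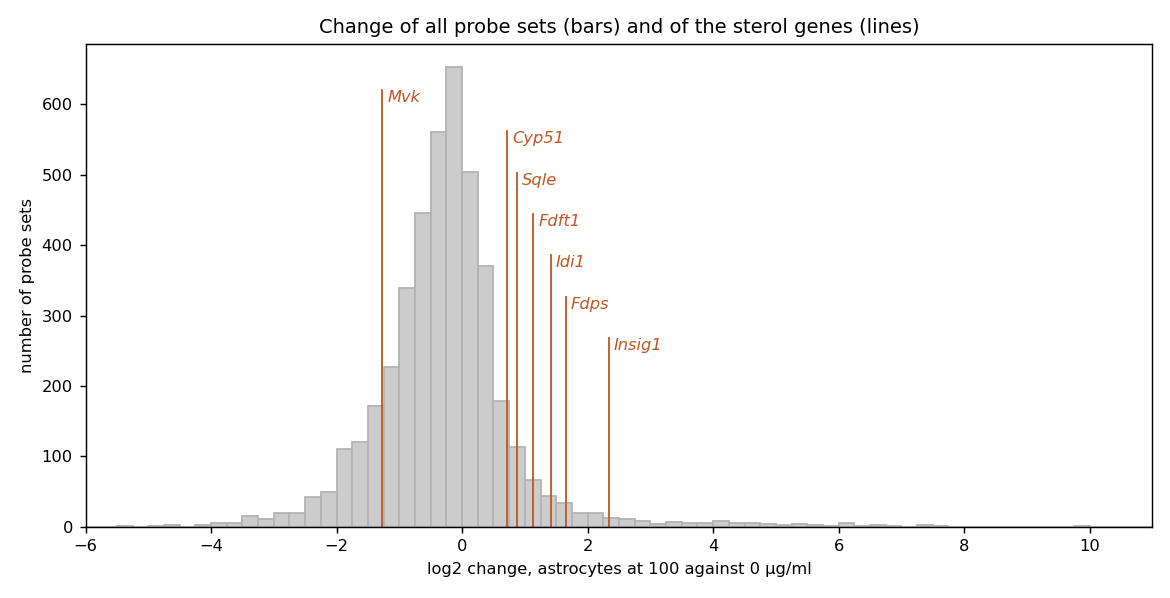
Number of probe sets (bars, 4252 in all) by their log2 change in astrocytes at 100 against 0 µg/ml, with the brightest probe set of each member as a line whose height has no meaning. Insig1 is at 2.34, Cyp51 at 0.72 and Mvk, the 1 member on the lower side, at -1.27.

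At the lower doses the same genes were mostly a little below the untreated astrocytes, and at 10 µg/ml so were most of all probe sets. The median log2 change of the 7 was -0.25 with 1 µg/ml, and -0.10 with 10 µg/ml. Each dose had 2 of 7 above the untreated array, where 48.8% of all probe sets lay above it at 1 µg/ml and 39.7% at 10 µg/ml. Over all probe sets the medians were -0.01 and -0.10. No member's brightest probe set was 2-fold apart from the untreated one at either dose. At 1 µg/ml 1.03% of all probe sets were at least 2-fold higher and 0.964% lower, and at 10 µg/ml 4.30% higher and 2.21% lower. All these changes share 1 untreated array. Set against the mean of the lower doses, the median at 100 µg/ml was 1.08.

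A dose slope was fitted over the 6 arrays at 0, 1 and 10 µg/ml, on log10 of the dose plus 1, which leaves out the array at 100 µg/ml (limma, 2 residual degrees of freedom). It called 3.08% of 4736 probe sets in astrocytes and none of the 17 member probe sets in the fit. The smallest adjusted p among members was 0.0878, for the Fdft1 probe set with 279 in untreated astrocytes and 108 at 10 µg/ml, with a slope of -1.49 ± 0.35 log2 per unit (SE). The brightest probe set of Idi1 had a slope of -0.55 ± 0.20 in astrocytes (adjusted p = 0.224) and 0.55 ± 0.20 in neurons (adjusted p = 1).

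In neurons the members varied by at most 1.51-fold between doses at their brightest probe sets. Idi1 had 355, 419 and 535 at 0, 1 and 10 µg/ml, a log2 change of 0.59 at 10 µg/ml. Cyp51 had 2333, 2450 and 3014, with a log2 change of 0.37 at 10 µg/ml. Both values stepped up at each dose, but the next 2 probe sets of Cyp51 by signal were lowest at 10 µg/ml (477.5, 485 and 394, then 299, 294 and 253). Sqle had 3518, 3417 and 3763, Fdps 932, 957.5 and 1029, Fdft1 431, 364 and 432, and Mvk 256, 275 and 207. For Sqle, Fdps and Fdft1 the highest neuron signal was 1.10-fold, 1.10-fold and 1.19-fold the lowest. For Idi1, Mvk, Cyp51 and Insig1 it was 1.51-fold, 1.33-fold, 1.29-fold and 1.12-fold. Dimmer probe sets that passed the filter reached 1.53-fold for Mvk, 1.43-fold for Fdps and 1.38-fold for Fdft1.

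The median log2 change of the 7 genes in neurons was 0.04 with 1 µg/ml, and 0.10 with 10 µg/ml, beside -0.001 and -0.01 for all probe sets. At 1 µg/ml 4 of 7 were above untreated neurons, where 49.7% of all probe sets were, and at 10 µg/ml 5 of 7, where 48.0% were. None was 2-fold apart, where at 1 µg/ml 0.269% of all probe sets were at least 2-fold higher and 0.292% lower, and at 10 µg/ml 0.292% higher and 0.472% lower. The slope fit called 0 of 4736 probe sets in neurons (limma), with 213 at an unadjusted p under 0.05 (4.50%). Idi1 and the brightest probe set of Cyp51 were among these, each at an adjusted p of 1 (limma). The slopes of neurons and astrocytes differed in 0.739% of all probe sets and in no member. The member differences with the smallest adjusted p (limma) were 1.96 for that same probe set of Fdft1 (0.1782), 1.10 for Idi1 (0.1885) and 1.71 for the second probe set of Mvk (0.2076).

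The cultures were compared over the same 3 doses, 3 neuron arrays against 3 astrocyte arrays (limma, 4 residual degrees of freedom). Of the 7 genes, 5 were higher in neurons: Sqle, Cyp51, Idi1, Fdps and Insig1. Sqle averaged 3570 ± 178 in neurons and 1890 ± 257 in astrocytes (SD, n = 3 each), 1.90-fold (log2 0.93, 95% interval 0.66 to 1.20, adjusted p = 0.000477, limma). Cyp51 averaged 2600 ± 364 in neurons and 1600 ± 75 in astrocytes at its brightest probe set (log2 0.69, interval 0.41 to 0.97, adjusted p = 0.00242, limma). For both genes every neuron array lay above every astrocyte array at these doses.

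Idi1 averaged 436 ± 91.5 in neurons and 239 ± 48.7 in astrocytes (log2 0.86, interval 0.37 to 1.36, adjusted p = 0.0123, limma). Fdps averaged 973 ± 50.5 in neurons and 676 ± 140 in astrocytes (log2 0.55, adjusted p = 0.0319, limma). Insig1 averaged 910 ± 52.5 in neurons and 693 ± 108 in astrocytes (log2 0.40, interval 0.08 to 0.73, adjusted p = 0.0487, limma). The groups did not overlap for any of the 3 genes. The calls for Fdps and Insig1 sat close to the threshold, and with no signal filter those for Idi1, Fdps and Insig1 were all lost (adjusted p = 0.0609, 0.104 and 0.103, limma). That for Fdps was lost without the astrocyte array at 1 µg/ml or any 1 neuron array (adjusted p up to 0.0994), and that for Insig1 without any array but the astrocyte one at 10 µg/ml (up to 0.158) and with dose as a block (0.0744).

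Fdft1 averaged 409 ± 39.3 in neurons and 303 ± 108 in astrocytes, and the groups overlapped (log2 0.48, interval -0.07 to 1.03, adjusted p = 0.138, limma). Without the astrocyte array at 1 µg/ml, the high one, its difference was 0.76 (adjusted p = 0.00944, limma). The second probe set of Fdft1 was called, at 0.49 (adjusted p = 0.0333). Mvk averaged 246 ± 35.1 in neurons and 260 ± 21.5 in astrocytes (log2 -0.09, interval -0.46 to 0.28, adjusted p = 0.691, limma), and the groups overlapped.

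**Figure D3:**
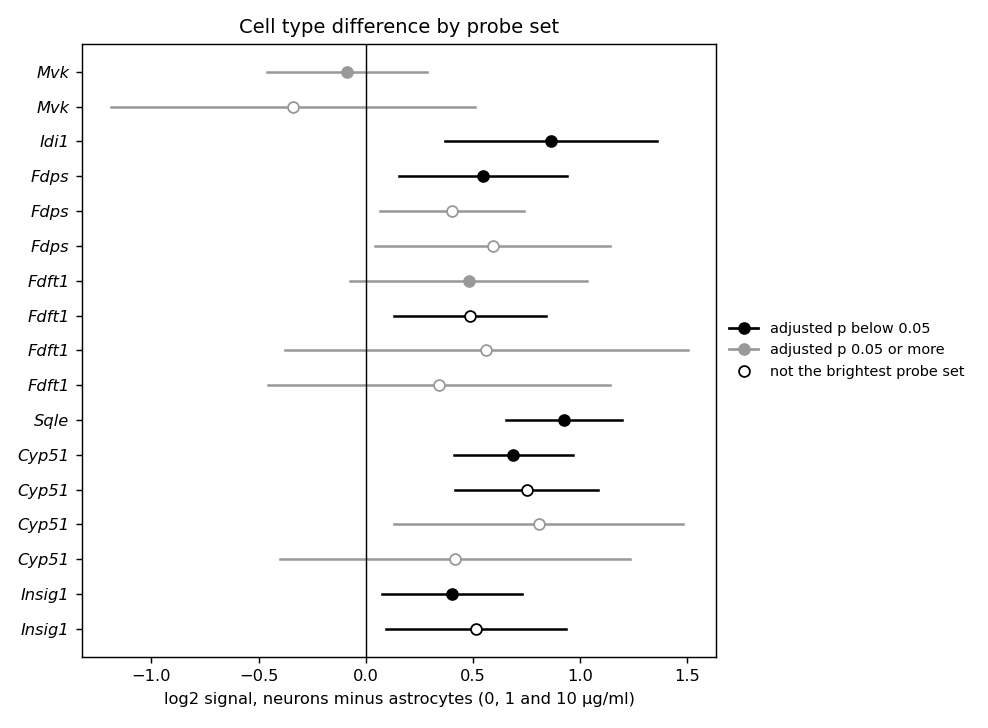
Difference in log2 signal, neurons minus astrocytes, over the arrays at 0, 1 and 10 µg/ml for the 17 member probe sets in the fit, with 95% intervals from limma; filled points are the brightest probe set of a gene and black marks an adjusted p below 0.05. All probe sets but those of Mvk lie to the right of 0, and 8 are black. The dimmest probe set shown for Fdft1 and that for Cyp51 passed the signal filter through the neuron arrays alone. This favours a place to the right, and neither is black.

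By gene, 5 of 7 members were called higher in neurons and 0 lower, where limma called 24.9% of all 4736 probe sets higher and 19.7% lower, 44.6% in all. Over probe sets, 8 of 17 were higher. The median difference of the 7 genes was 0.55, beside 0.07 for all probe sets. Neuron arrays lay wholly above astrocyte arrays for 10 of the 17, against 32.2% of all. The members were chosen by their signals on these arrays, so nothing is read from these shares. The members' p-values do not allow for that choice, and leaving out an array does not undo it. The untreated astrocyte array enters both this comparison and the changes with dose. Without it the differences were 1.03 for Sqle, 0.73 for Cyp51, 1.01 for Idi1 and 0.63 for Fdps, all still past the threshold. In cultures of mixed cells, fewer cells of a type and less RNA per cell cannot be told apart.

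Over all 7 arrays the order of the levels therefore differed by gene. For Insig1, Fdps, Idi1, Fdft1 and Sqle, astrocytes at 100 µg/ml were highest, neurons came next and, except for Fdft1, astrocytes at 0, 1 and 10 µg/ml were lowest. For 33.0% of all probe sets the astrocyte array at 100 µg/ml lay above every neuron array. The Sqle signal in astrocytes at 100 µg/ml was 1.06-fold over neurons at 10 µg/ml, less than the 1.10-fold between the lowest and highest neuron arrays. For Fdft1 the order holds for the brightest probe set alone: at 100 µg/ml the second lay within the neuron range and the other 2 below every neuron array. The brightest probe set of Cyp51 was within the neuron range at 100 µg/ml, and 3 dimmer ones lay above it. Mvk in astrocytes at 100 µg/ml was below every neuron array, at 0.521 of neurons at 10 µg/ml.

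Other enzymes of the pathway were read from lists of its steps. Acat2, which starts the pathway from acetyl-CoA, had 1835, 1484, 2052 and 3794 in astrocytes at 0, 1, 10 and 100 µg/ml, and Mvd, which makes the first isoprenoid unit, 304, 250, 338 and 610. Lss, which closes the sterol ring, had 425, 329, 450 and 790. Msmo1, a methyl sterol oxidase, had 4167.5, 4419, 4489 and 8408. In each the array at 100 µg/ml stood above the lower doses, by 1.86-fold to 2.07-fold over the untreated one at the brightest probe set. A dimmer probe set gave 3.82-fold for Acat2 and 4.91-fold for Msmo1. Hsd17b7, a reductase of the same steps, had 64.8, 60.4, 60.6 and 183.

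At their brightest probe sets, Dhcr7 and Ebp differed less from untreated astrocytes. Dhcr7, the last reductase of 1 route to cholesterol, had 755, 542, 503 and 992 there, 1.31-fold at 100 µg/ml. Its dimmer probe set had 422, 467, 400 and 748, which is 1.77-fold. Ebp, a sterol isomerase, had 245, 329, 281 and 343, where 100 µg/ml stood only slightly above 1 µg/ml. Nsdhl, which acts beside Msmo1, was the exception with 160, 177, 112.5 and 107, lowest at 100 µg/ml. Together with the members, 14 of 15 measured synthesis enzymes passed the signal filter in astrocytes. At 100 µg/ml, 7 of the 14 were at least 2-fold higher than untreated and 1, Mvk, at least 2-fold lower. The filter averaged all astrocyte arrays, that at 100 µg/ml included. Hsd17b7, below the cut of 79.9 at 0, 1 and 10 µg/ml, passed through the array at 100 µg/ml alone. It is among the 7, and among those higher to any degree. Of all probe sets, 6.63% were at least 2-fold higher and 19.0% at least 2-fold lower. The 14 had a median log2 change of 0.95, and 12 were higher to any degree, against 34.0% of all probe sets. They include members chosen with this contrast known, so nothing is read from these shares. At 1 and 10 µg/ml the medians of the 14 were -0.19 and -0.06.

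**Figure D4:**
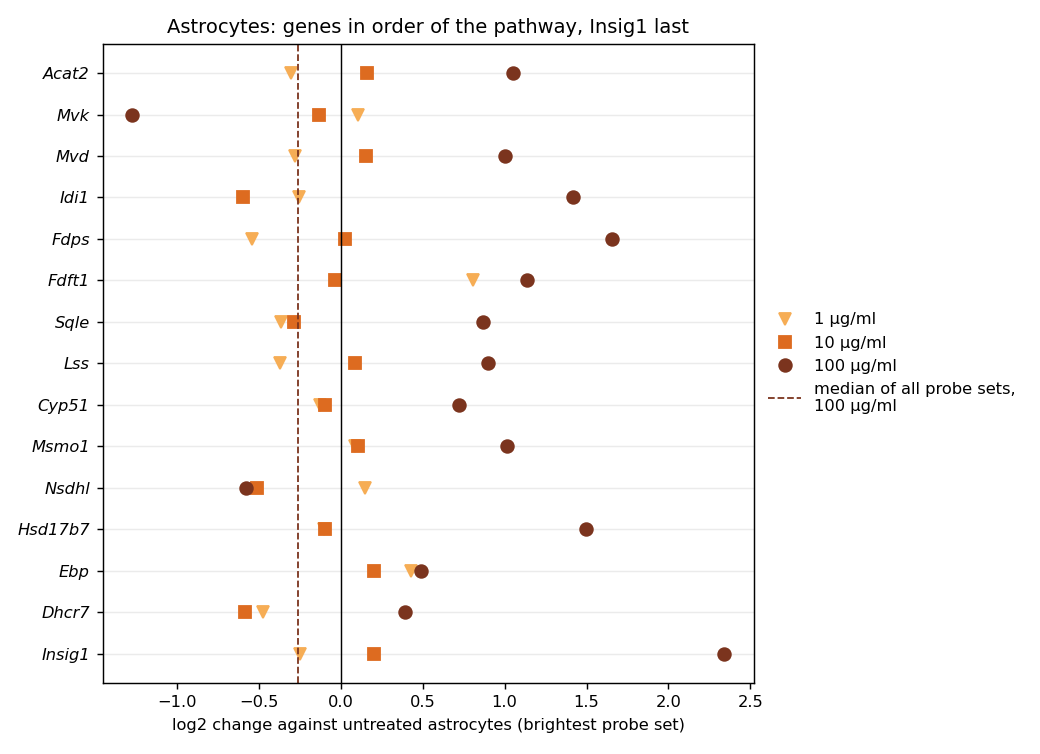
Log2 change against untreated astrocytes at 1, 10 and 100 µg/ml for the brightest probe set of each synthesis gene, in the order of the pathway from top to bottom with Insig1 last; the dashed line is the median of all probe sets at 100 µg/ml, -0.26. The points for 100 µg/ml lie to the right except those of Mvk (-1.27) and Nsdhl (-0.58).

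Between the cultures, of the 13 synthesis enzymes in the 6-array fit, 5 were higher and 1 lower in neurons, beside 24.9% higher and 19.7% lower of all probe sets. Besides the members, Dhcr7 was higher in neurons (log2 0.83, adjusted p = 0.00527, limma) and Ebp lower (log2 -1.18, adjusted p = 0.00194, limma). Ebp had 140, 138 and 101 in neurons at 0, 1 and 10 µg/ml, against 245, 329 and 281 in astrocytes. Acat2, Mvd, Lss, Msmo1 and Nsdhl did not pass at their brightest probe sets, with differences of -0.05 to 0.46. The dimmer probe set of Acat2 did, at 0.66 (adjusted p = 0.0404, limma).

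Of 14 listed genes of sterol sensing and lipoprotein uptake, 4 had a probe set and 3 passed the signal filter. Srebf1, which encodes the SREBP-1 factors, had 252.5, 221 and 273 by rising dose in neurons and 239, 235, 222 and 317 in astrocytes. Its difference between the cultures was 0.10 (interval -0.23 to 0.43, adjusted p = 0.609, limma). Scarb1, a receptor for high-density lipoprotein, had 539, 626, 538 and 710 in astrocytes at its brightest probe set, while its other 2 were below untreated at 100 µg/ml. It was higher in neurons (log2 0.39, adjusted p = 0.0496, limma). Lipa, the lysosomal lipase that frees cholesterol from lipoprotein esters, had 2756, 3059, 3167 and 1328, lowest at 100 µg/ml by 2.07-fold, and it was lower in neurons (log2 -1.74, adjusted p = 6.71e-06, limma). Vldlr, a lipoprotein receptor, had 39.0 to 69.5 on all 7 arrays and did not pass the filter.

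Of 13 listed genes of sterol efflux, oxidation and storage, 9 were measured. Beside 19.7% lower and 24.9% higher of all probe sets, 5 of 7 in the fit were lower in neurons and 0 higher. They were Cyp27a1 and Cyp7b1, which hydroxylate sterols (log2 -1.64 and -1.35), Nr1h3 and Nr1h2, the LXR receptors for oxysterols (-0.76 and -0.51), and Apoe, the main lipoprotein component made by astrocytes (-0.36). Their adjusted p (limma) ran from 0.000386 to 0.0369. In astrocytes Cyp7b1 had 2687.5, 3004, 4399.5 and 2009 at 0, 1, 10 and 100 µg/ml, highest at 10 µg/ml and lowest at 100 µg/ml. Nr1h3 had 175, 175.5, 182 and 97.2, with the array at 100 µg/ml apart. Cyp27a1 had 331, 307, 473 and 521 at its brightest probe set, highest at 100 µg/ml. Its dimmer one had 55.3, 70.9, 370 and 363, which is 6.56-fold at 100 µg/ml, with a slope of 2.75 over 0 to 10 µg/ml (adjusted p = 0.0182, limma). The list's median log2 change at 100 µg/ml was -0.28, close to that of all probe sets, and 0 of 7 were 2-fold apart from untreated at their brightest probe sets. Of all probe sets, 6.63% were at least 2-fold higher and 19.0% at least 2-fold lower.

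SREBP factors also act on genes of fatty acid synthesis, of which 8 of 12 listed were measured. Of 6 in the fit, 5 were higher in neurons, beside 24.9% of all probe sets. The 5 included Fasn, fatty acid synthase (log2 0.94, adjusted p = 0.0068, limma), and Scd, a desaturase (log2 0.85, adjusted p = 0.00298, limma). In astrocytes Scd had 160, 150, 184 and 404 at 0, 1, 10 and 100 µg/ml, and Acly, which supplies acetyl-CoA, 2051, 3211, 3031 and 5258. Scd2, another desaturase, was lowest at 100 µg/ml with 5504, 6799, 7011 and 3672. Dimmer probe sets gave 4.03-fold higher for Acly and 2.01-fold lower for Scd2 at 100 µg/ml. By brightest probe sets, 2 of 6 were at least 2-fold higher at 100 µg/ml and the median was 0.54, beside 6.63% and -0.26 for all probe sets.

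The signals most like the mean profile of the 7 members over the 7 arrays were sought among 2409 probe sets outside the set that spanned at least 1 log2. Odc1, ornithine decarboxylase of polyamine synthesis, came first with both of its listed probe sets, at Pearson's r of 0.99 and 0.98. The brighter had 2758, 2678 and 2738 across the neuron doses, lowest first, and 1434, 1059, 1269 and 4929 across the 4 astrocyte doses. Gstm1, Egr2, Arc, Scd, Mchr1, Fkbp1a, Hbegf and an uncharacterised gene made up the 10, at r of 0.93 to 0.96. The arrays form 2 kinds of culture and 1 array stands apart, so these r describe a shared order of 7 points and carry no test.

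Markers of other cells differed between the cultures. Microglia and macrophage markers summed to 495 to 801 in neurons and, by rising dose, 4887, 5600, 5860 and 2346 in astrocytes, and 3 of 3 tested were lower in neurons. Oligodendrocyte markers, of cells that make much cholesterol for myelin, summed to 695 to 803 in neurons and 6564 to 7997 in astrocytes, with 5 of 5 lower in neurons. Fibroblast and meningeal markers summed to 14580 to 17090 in neurons and 35850 to 48530 in astrocytes, with 5 of 6 lower in neurons. Of all probe sets tested, 19.7% were lower in neurons. Between astrocytes at 100 and 0 µg/ml the oligodendrocyte sum was 7997 against 7520 and the fibroblast sum 44020 against 48530, while the microglia sum was 2346 against 4887. The part of these cells in the differences was not tested.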

How the data were processed

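Total RNA (100 ng per array) was amplified and biotin-labelled in a two-cycle procedure, per the labels' protocols, and hybridised to Affymetrix rat arrays. The values used are signal intensities on a linear scale, which the authors deposited after computing them per array with GCOS, per the submitters' processing notes; which version was run, and how it was set, is not stated in those notes. Their 2%-trimmed means were 500.731 to 500.874, so the scale was kept. No arrays were identical. From 8799 probe sets, 59 controls were left out; 7006 of the rest had 1 gene symbol, 308 several and 1426 none. Signals below the 25th percentile (17.9) were raised to it before log2. Probe sets entered a comparison if their mean log2 signal exceeded the log2 of the median signal (79.9). For the 6 arrays at shared doses the mean of either cell type was enough, which let in 4736. A probe set could thus enter the comparison of the cultures through 1 culture alone. The mean over the neuron arrays let in 4453 and that over the astrocyte arrays 4252. The astrocyte mean held the array at 100 µg/ml, so a probe set could enter through a high signal there. Of 19 member probe sets, 17, 17 and 16 entered.

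Fits used limma 3.58.1 in R 4.3.3 (eBayes with a trended prior, two-sided, Benjamini-Hochberg over all probe sets tested, threshold 0.05), after a test on simulated data. Arrays at different doses stood in for replicates of a cell type, so their spread holds the dose effect. Changes against the untreated array rest on 1 array each and have no test. A gene was read by its brightest probe set over the 7 arrays. All members were named, any measured gene of the sterol and fatty acid lists could be named, and the 10 probe sets most like the members. Members and lists were chosen with earlier results of these data known. Alternatives were quantile normalization, no floor, no filter or one at the 75th percentile (435.7), the mean over a gene's probe sets, a constant prior, leaving out each array, dose as a block, all 7 arrays, ranked doses, another reference and centring. Figures were drawn with matplotlib 3.10.9.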

Additional observations from a re-analysis of the deposited data

Results flagged for a closer look

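At 1 and 10 µg/ml, both treated neuron arrays lay on one side of the untreated one and both treated astrocyte arrays on the other for 10 of 34 probe sets of members and other sterol genes. Given as neuron slope minus astrocyte slope, in log2 per unit of log10 of the dose plus 1, the values were 1.71 for the dimmer probe set of Mvk, 1.10 for Idi1, 0.67 for Dhcr7, 0.43 and 0.35 for 2 probe sets of Cyp51 and 0.23 for the second probe set of Fdps. They were negative for Nr1h2 (-0.83), Cyp7b1 (-0.72), Ebp (-0.58) and Lipa (-0.20). In the limma fit of the slope difference none of these 10 passed an adjusted p of 0.05. The pattern of sides itself was not tested and was not counted over all probe sets. Nothing is therefore read from its number among the 34. Both treated arrays of a cell type share 1 untreated array.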

How the results depend on the processing

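With 1 array for each combination there is no replicate error, so the changes with dose cannot be told from the spread between arrays, and probe sets near the floor limit what dim genes can show. The labels give no replicate numbers. With dose as a replicate block, pairing arrays of equal dose, Sqle, Cyp51, Idi1 and Fdps kept their calls between neurons and astrocytes and Insig1 did not (adjusted p = 0.0744, limma). Sqle, Cyp51 and Idi1 kept theirs without any 1 of the 6 arrays. With no filter Idi1 (adjusted p = 0.0609), Fdps (0.104) and Insig1 (0.103) lost theirs, with more probe sets tested. Quantile normalization ended those of Fdps (0.0508) and Insig1 (0.0774), and a constant prior that of Insig1 (0.0617, limma). With all 7 arrays no member was called and Insig1 turned to -0.185. Averaging a gene's probe sets turned Fdft1 at 100 µg/ml to -0.011 and ended the calls of Idi1 (adjusted p = 0.229) and Cyp51 (0.151, limma). The means of Idi1 and Cyp51 each took in a probe set that did not pass the filter and lay near the floor on most arrays. The part of these probe sets in the lost calls was not tested.

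Of 2113 probe sets called between the cultures, the counts were 1317 with the filter at the 75th percentile and 1237 over gene means, where fewer were tested, and 1595 to 2301 without 1 array. The 146 astrocyte slope calls became 5 with no filter, 80 with a constant prior, 3 with ranked doses and 0 to 82 without 1 array. The 35 slope differences became 0 with no filter, 19 over gene means, 4 with a constant prior, 0 with ranked doses and 0 to 14 without 1 array. The neuron slope gave 0 throughout.

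Probe sets at least 2-fold from untreated numbered 25 and 34 for the neuron doses, lowest first, and 85, 277 and 1088 for the astrocyte doses. Without a filter they were 355, 357, 466, 728 and 1805. At the 75th percentile they were 0, 1, 22, 115 and 416, and over gene means 9, 14, 30, 145 and 602. Against the mean of the lower doses, neurons at 10 µg/ml gave 22. The members' median at 100 µg/ml, 1.14, was 1.401 after quantile normalization, 0.754 over gene means and 1.395 relative to all probe sets.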
